A study of Mus musculus with 15 samples.

Results

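The 10 genes described here, Havcr1, Lcn2, Krt20, Spp1, Clu, Vcam1, Sox9, Krt8, Krt18 and Cd44, are transcripts that damaged or regenerating kidney tubules are known to express. The rule names them by symbol, and all 10 were found through their Ensembl identifiers among the 54532 genes of the deposited table. RNA sequencing was available for 15 kidneys of male C57BL/6 mice that were 8 weeks old when the study began. The control group (C, n = 5) had a normal diet, the CKD model group (M, n = 5) had a diet with 0.25% adenine for 4 weeks, and the AA group (n = 5) had the same adenine diet with 30 mg/kg of asiatic acid, a plant triterpenoid, by daily oral gavage. All mice then had standard chow until week 8, when AA was still being given, and C and M mice were gavaged with the vehicle. Dietary adenine is a chemical model of chronic kidney disease in which crystals form in the tubules, so the kidneys were sampled after a recovery period on standard chow and not at the end of the insult. Whole kidney was sequenced, and in bulk tissue a smaller number of cells of a type cannot be told apart from less RNA per cell.

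Tubular epithelial cells that survive an insult lose their transport functions, spread over the bared basement membrane and divide. During this repair they switch on surface receptors such as KIM-1, secrete proteins such as NGAL, osteopontin and clusterin into urine and interstitium, strengthen their keratin skeleton and re-express the developmental factor SOX9. Cells that fail to finish the repair are known to keep adhesion molecules such as VCAM1 and CD44, and are found beside leukocytes and fibroblasts. Several of these genes also have other sources in the kidney: collecting duct and urothelium carry Krt8, Krt18 and Spp1, leukocytes carry Cd44, macrophages carry Spp1, and endothelium carries Vcam1.

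The promoters of 4 of the genes are shown because these genes span the pattern found below: Havcr1 and Cd44 differed between groups, Spp1 was the most abundant member, and Krt20 was among the least abundant. Each is the 250 bases before an annotated RefSeq transcription start on GRCm38.p6, written 5′ to 3′ on the strand of the gene, and capitals mark letters that match a searched motif. The windows are chr11:46750918-46751167 (+ strand, the third of 3 annotated starts of Havcr1), chr2:102901666-102901915 (- strand, Cd44), chr5:104434861-104435110 (+ strand, the first of the annotated starts of Spp1) and chr11:99438154-99438403 (- strand, Krt20).
Havcr1: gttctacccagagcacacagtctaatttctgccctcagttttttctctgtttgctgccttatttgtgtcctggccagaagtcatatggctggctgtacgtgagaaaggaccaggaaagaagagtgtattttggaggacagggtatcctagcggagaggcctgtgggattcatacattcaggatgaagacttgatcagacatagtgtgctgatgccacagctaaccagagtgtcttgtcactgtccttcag
Cd44: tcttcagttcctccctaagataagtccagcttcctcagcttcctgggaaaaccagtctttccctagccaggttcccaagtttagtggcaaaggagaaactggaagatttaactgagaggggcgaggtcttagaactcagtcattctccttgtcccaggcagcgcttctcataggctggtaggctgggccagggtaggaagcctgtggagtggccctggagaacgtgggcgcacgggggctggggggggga
Spp1: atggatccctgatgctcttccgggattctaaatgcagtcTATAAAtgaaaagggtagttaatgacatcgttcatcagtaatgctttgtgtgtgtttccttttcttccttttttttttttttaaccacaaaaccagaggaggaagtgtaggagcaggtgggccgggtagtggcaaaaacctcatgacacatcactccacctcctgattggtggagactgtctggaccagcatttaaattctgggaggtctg
Krt20: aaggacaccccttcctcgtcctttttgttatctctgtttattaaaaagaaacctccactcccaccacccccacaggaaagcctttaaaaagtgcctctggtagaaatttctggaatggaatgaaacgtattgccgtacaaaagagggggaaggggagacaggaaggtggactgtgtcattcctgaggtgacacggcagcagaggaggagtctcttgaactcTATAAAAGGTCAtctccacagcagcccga
The motifs were searched on both strands. They were the TATA box (TATAAA), which 12.4% of all 32851 RefSeq promoters of this length hold, the AP-1 motif (TGANTCA, 6.75%), the STAT motif (TTCNNNGAA, 7.02%), the letters AGGTCA (14.0%) and the NF-kB motif (7.25%). AGGTCA is only a part of a retinoic acid receptor site. The Krt20 window held TATAAA at positions -29 to -24 relative to the start and the adjoining AGGTCA at -23 to -18. The Spp1 window held TATAAA at -211 to -206. The Havcr1 and Cd44 windows shown held none of these letters. These matches describe the letters and were not tested for binding. Clu, Vcam1 and Sox9 had no entry.

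Values are FPKM, the fragments counted on a gene scaled to its length and to the size of its library. From 13646982 to 28883960 fragments per kidney lay on genes, and from 2077628 to 13576534 of them outside the mitochondrial genome. The latter numbered 6951338 to 13576534 in C, 2077628 to 7142881 in M and 2225767 to 4271179 in AA. Every AA kidney thus had fewer of them than every control, and this depth cannot be told apart from group in AA vs. C. The M group was uneven: M mice 1, 2 and 3 had 11551, 10068 and 12222 genes above 0, against 23040 and 25460 in M mice 4 and 5, 19864 to 25251 in C and 18695 to 22355 in AA. For the 10 genes, results that involve the M group are therefore also given with M mice 4 and 5 alone or M mice 1 to 3 alone where these change a call or a sign. With only M mice 4 and 5, 0 of 20868 genes were called for M vs. C by limma, and 2489 had an unadjusted p under 0.05, so no M vs. C call given here for any gene held there. As a check of the tissue, the summed FPKM of 15 proximal tubule markers was 3319 to 13830 in C, 146.5 to 678.4 in M and 274.6 to 689.4 in AA, with no marker at 0 in all kidneys of a group. Nothing in the labels links the mice of different groups. The p-values set the difference of 2 group means against the spread between the kidneys within groups.

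Adenine mice differed from controls in 1 of the 10 genes by the criteria used for all genes, which required 0.05 or less for the limma adjusted p together with 1 or more for the log2 fold change in either direction, and that gene was Cd44. No member was called lower. Of all 21153 genes tested, 0.269% were called higher and 1.11% lower in M vs. C, and 1.05% had every M kidney above every C kidney, as Cd44 did. The median log2 fold change of the members was 1.01, against -0.12 over all genes, and 8 of 10 were positive. In AA vs. M, Havcr1 and Sox9 were called higher and no member lower, where 11.7% of 19798 genes were called higher and 1.07% lower. That split of 2321 higher and 212 lower became 460 and 1196 with only M mice 4 and 5, and 415 and 7 on TPM, which rescales each library to the same sum. On TPM without mitochondrial genes the split was 2598 and 271. The members' median was -0.06 against 0.17 over all genes, and 0 members had every AA kidney above every M kidney, which 11.9% of all genes had. In AA vs. C, Havcr1, Sox9, Cd44 and Vcam1 were called higher and Krt18 lower, where 10.2% of 21898 genes were called higher and 9.61% lower. The members' median was 1.03 against 0.09 over all genes. Havcr1, Sox9 and Cd44 had every AA kidney above every C kidney, which 11.5% of all genes had. AA vs. M and M vs. C share the M kidneys, and AA vs. C shares the kidneys of both, so the comparisons are not independent of each other.

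**Figure D1:**
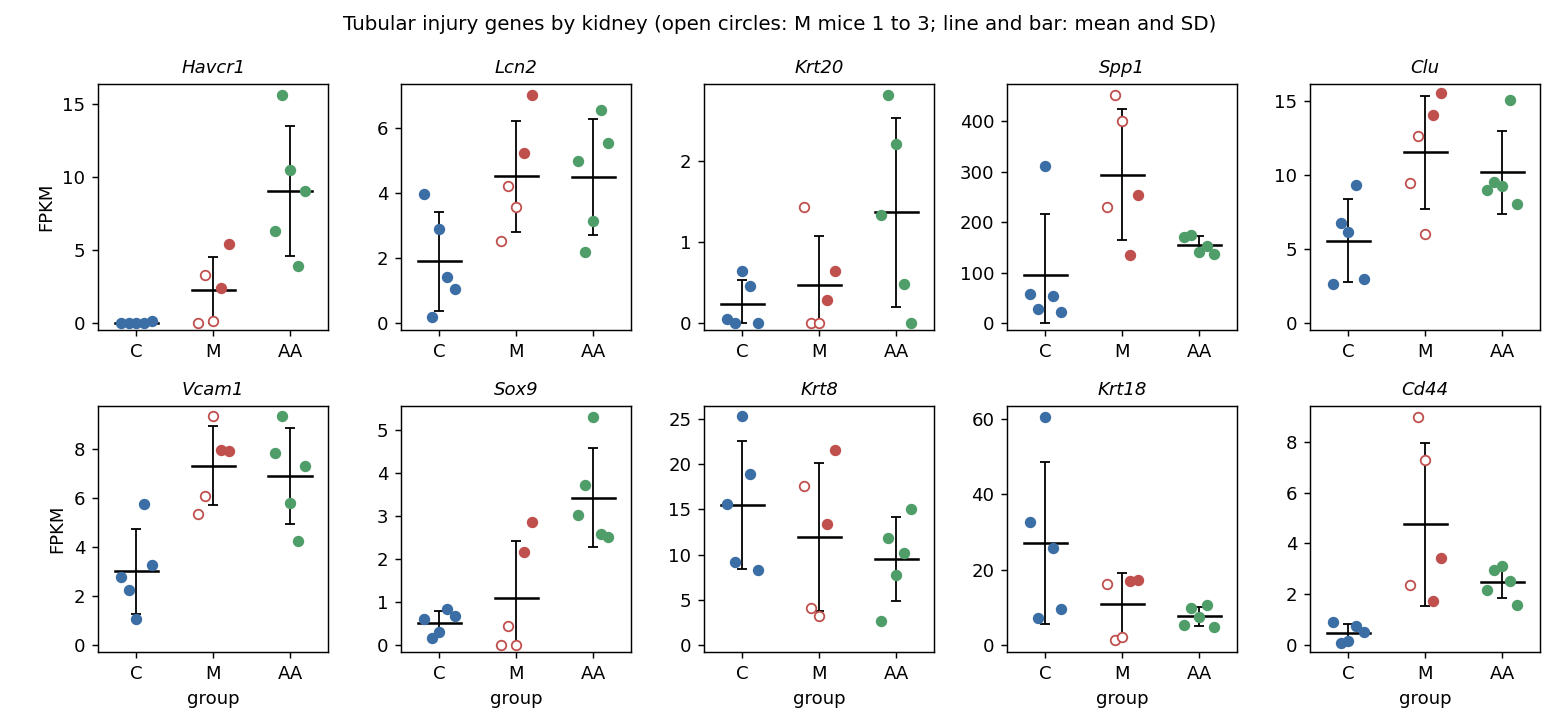
FPKM of each gene (vertical axis, a linear scale of its own in each panel) in the 5 kidneys of the C, M and AA groups, where each circle is 1 kidney, open circles are M mice 1 to 3, and the line and bar are the group mean and SD (the lower bar stops at 0). Every AA kidney lies above every C kidney for Havcr1, Sox9 and Cd44, and the highest C kidney for Spp1, Krt8 and Krt18 is C mouse 3.

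Havcr1 (ENSMUSG00000040405, chr11:46735080-46779578, + strand) encodes KIM-1, a phosphatidylserine receptor that injured proximal tubule cells use to take up dying cells. It was listed at 0 in C mice 1, 2 and 4, at 0.0065 FPKM in C mouse 3 and at 0.155 FPKM in C mouse 5. The M mice 1 to 5 had 0, 3.31, 0.128, 2.39 and 5.41 FPKM. The AA mice 1 to 5 had 6.32, 15.6, 10.5, 3.91 and 9.06 FPKM. Controls were thus nearly silent, M kidneys ran from the control range to well above it, and AA kidneys were all high, with 4 of 5 above the highest M kidney. The group means were 0.032 ± 0.069 FPKM in C, 2.25 ± 2.27 in M and 9.08 ± 4.45 in AA (SD, n = 5 each).

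The log2 fold change of Havcr1 in AA vs. C was 3.17 ± 0.29 (SE, limma adjusted p = 0.00011), and it was called in all 10 fits that left out 1 kidney. Because the controls together held only 13 fragments of this gene, the size depends on the constant added before taking logs, and was 6.09 with 0.1 in place of 1. The difference of AA vs. M was 1.87 ± 0.53 (limma adjusted p = 0.0256). It lost the call when M mouse 1, M mouse 3 or AA mouse 2 was left out (adjusted p of 0.0638, 0.0701 and 0.0589), and with only M mice 4 and 5 it was 0.99 ± 0.47 (adjusted p = 0.207). In M vs. C it was 1.30 ± 0.46 (adjusted p = 0.187), with 3 of 5 M kidneys above every control. The 0 of M mouse 1 allows up to 0.112 FPKM at 3 fragments, a limit for counting error only. In rank among the 21995 protein-coding genes, Havcr1 stood between 440 and 2416 in AA kidneys, between 2350 and 10554 in the 4 M kidneys that had it, and at 13525 and 16151 in the 2 controls that had it. Ranks of low values also depend on how many genes were detected: 0.128 FPKM ranked 10554 in M mouse 3, and 0.155 FPKM ranked 13525 in C mouse 5. Of its 31-base words, 7.16% also occur in other genes, mainly Timd2, a gene of the same family.

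Sox9 (ENSMUSG00000000567, chr11:112782224-112787760, + strand) encodes a transcription factor of kidney development that marks tubule cells during repair. The C mice 1 to 5 had 0.617, 0.156, 0.309, 0.843 and 0.672 FPKM. The M mice 1 to 5 had 0, 0.44, 0, 2.16 and 2.85 FPKM. The AA mice 1 to 5 had 3.02, 3.73, 5.30, 2.57 and 2.52 FPKM. All AA kidneys were above all controls, while the M group was split, with M mice 1 and 3 below every control, M mouse 2 inside the control range, M mouse 4 just below the AA range and M mouse 5 within it.

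Sox9 was 1.53 ± 0.23 higher on the log2 scale in AA vs. C (SE, limma adjusted p = 0.00074), and was called in all 10 fits without 1 kidney. The AA vs. M difference was 1.29 ± 0.41 (adjusted p = 0.0458). That call was kept only when M mouse 4 or M mouse 5 was the kidney left out, and was lost in the other 8 fits (adjusted p from 0.0558 to 0.111). Against M mice 4 and 5 alone it was 0.31 ± 0.33 (adjusted p = 0.569), and against M mice 1 to 3 alone 1.94. With mouse number as a block it was not called (adjusted p = 0.0787). M vs. C gave 0.24 ± 0.39 (adjusted p = 0.764), with 2 M kidneys above and 2 below every control, and the sign turned under 4 other settings and without M mouse 5. Sox9 thus passed the test in AA vs. C without dependence on a kidney, whereas its difference between M and AA rested on M mice 1 to 3.

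Lcn2 (ENSMUSG00000026822, chr2:32384633-32388252, - strand) encodes NGAL, an iron-carrier protein released by distal tubule cells and neutrophils. The C mice 1 to 5 had 3.99, 0.171, 2.89, 1.41 and 1.06 FPKM. The M mice 1 to 5 had 2.53, 4.23, 3.57, 5.23 and 7.04 FPKM, and the AA mice 4.98, 2.20, 3.15, 6.56 and 5.56 FPKM. Every M and every AA kidney exceeded the control mean, 3 of 5 in each group exceeded the highest control, and M and AA covered the same range. The difference was 1.05 ± 0.40 in M vs. C (SE, limma adjusted p = 0.219), 1.03 ± 0.38 in AA vs. C (adjusted p = 0.0531) and -0.02 ± 0.34 in AA vs. M (adjusted p = 0.979). Lcn2 passed in AA vs. C when C mouse 1 (1.26, adjusted p = 0.0185), C mouse 3 (1.17, 0.0467) or AA mouse 2 (1.20, 0.0352) was left out. The 11 neutrophil markers summed to 1.74 to 11.5 FPKM in C, 2.41 to 40.1 in M and 2.72 to 16.2 in AA. The highest of these sums were in M mice 2 and 3 (36.5 and 40.1 FPKM). Of the 11 markers, Ly6g, Mpo, Retnlg, Cxcr2, Ngp and Ltf were listed at 0 in at least 3 of 5 kidneys of each group. For M against C, limma fitted 4 of the 11, all with positive fold changes (median 0.45) and 0 called. For AA against M, 1 was positive and 3 were negative (median -0.67), with 0 called. For AA against C, 5 were fitted, of which 4 were positive and 1 was negative (median 0.40). Elane was called higher and S100a9 lower. The part of neutrophils in Lcn2 was not tested.

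Clu (ENSMUSG00000022037, chr14:65968483-65981547, + strand) encodes clusterin, a secreted chaperone. It was at 2.65, 6.73, 6.16, 9.30 and 2.95 FPKM in C mice 1 to 5, at 9.48, 12.6, 5.98, 14.0 and 15.5 in M mice and at 8.99, 9.52, 9.25, 15.1 and 8.00 in AA mice. Of 5 M kidneys, 4 exceeded every control, and the AA kidneys other than AA mouse 4 lay between 8.00 and 9.52 FPKM. The log2 difference was 0.98 ± 0.37 in M vs. C (limma adjusted p = 0.211), -0.13 ± 0.33 for AA against M (adjusted p = 0.819) and 0.85 ± 0.31 for AA against C (adjusted p = 0.0483). The last of these passed the p-value but not the required fold, passed both without C mouse 4 (1.04, adjusted p = 0.0208), and had the opposite sign after rescaling to TPM (-0.11). On TPM without mitochondrial genes the AA vs. C value was 0.88 (adjusted p = 0.0942).

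Spp1 (ENSMUSG00000029304, chr5:104435118-104441050, + strand) encodes osteopontin, a phosphoprotein of tubule cells and macrophages that binds integrins and calcium crystals. The C mice 1 to 5 had 58.0, 28.6, 311.2, 53.5 and 22.1 FPKM. The M mice 1 to 5 had 229.8, 452.5, 401.8, 135.2 and 253.7 FPKM. The AA mice 1 to 5 had 171.0, 175.5, 141.1, 153.3 and 137.8 FPKM. Apart from C mouse 3, all controls were below all M and AA kidneys, and the AA kidneys were the most alike, with a coefficient of variation of 10.96% against 44.2% in M and 128.9% in C. Per length, Spp1 made up 67.8% to 92.7% of the summed FPKM of the 10 genes in M kidneys and 71.9% to 80.1% in AA kidneys. It ranked between 15 and 42 among protein-coding genes in all 10 of these, and between 18 and 500 in controls.

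The log2 difference of Spp1 was 2.21 ± 0.62 in M vs. C (SE, limma adjusted p = 0.104), larger than in all but 0.104% of genes tested, and was not called. Without C mouse 3 it was 2.82 (adjusted p = 0.0222) and called. Against all controls, M mice 1 to 3 alone gave 2.57, which was called (adjusted p = 0.0227). M mice 4 and 5 alone gave 1.67 ± 0.87 (adjusted p = 0.517). In AA vs. C the difference was 1.41 ± 0.56 (adjusted p = 0.0655), and without C mouse 3 it was 2.02 (adjusted p = 0.0013). On TPM the value was 1.21 for M vs. C (adjusted p = 0.236) and 0.32 for AA vs. C (adjusted p = 0.715). TPM without mitochondrial genes gave 2.32 for M vs. C (adjusted p = 0.147) and 1.34 for AA vs. C (adjusted p = 0.135). The AA vs. M value was -0.80 ± 0.36 (adjusted p = 0.147), and no AA kidney reached the M mean of 294.6 ± 130.1 FPKM. Against M mice 1 to 3 alone it was -1.16 and called lower (adjusted p = 0.0102), while with only M mice 4 and 5 it was -0.26 ± 0.34 (adjusted p = 0.656). The 9 macrophage markers summed to 356.2, 420.7 and 464.9 FPKM in M mice 1 to 3, 161.0 and 162.6 in M mice 4 and 5, 113.4 to 166.0 in AA and 18.1 to 118.9 in C, with none at 0 in 3 or more kidneys of a group. Their part in Spp1 was not tested. The uncharacterised gene Gm42793 overlaps Spp1 on the same strand, and 14.3% of the words of Spp1 occur in it.

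Cd44 (ENSMUSG00000005087, chr2:102811141-102901665, - strand) encodes the hyaluronan receptor, which also binds osteopontin. The C mice 1 to 5 had 0.914, 0.073, 0.173, 0.75 and 0.507 FPKM. The M mice 1 to 5 had 2.35, 8.98, 7.30, 1.73 and 3.42 FPKM. The AA mice 1 to 5 had 2.17, 2.95, 3.11, 2.51 and 1.60 FPKM. Every kidney that had received adenine was above every control, and M mice 2 and 3 stood far above the others. The difference was 1.81 ± 0.39 in M vs. C (SE, limma adjusted p = 0.0402) and 1.24 ± 0.23 in AA vs. C (adjusted p = 0.0021).

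The AA vs. C call of Cd44 held in all 10 fits that left out a kidney, but the M vs. C call held only without M mouse 4 or M mouse 5. In the other 8 fits the fold change stayed between 1.56 and 1.96 and the adjusted p lay between 0.0509 and 0.113. Against controls, M mice 4 and 5 alone gave 1.26 ± 0.31 (adjusted p = 0.15). Between AA and M the difference was -0.57 ± 0.38 (adjusted p = 0.331), and with only M mice 4 and 5 it was -0.02 ± 0.33 (adjusted p = 0.972). The kidneys highest in Cd44, M mice 2 and 3, also had the highest sums of macrophage markers, and the part of leukocytes in Cd44 was not tested. The T cell markers summed to 0.747 to 9.21 FPKM in C, 1.74 to 14.3 in M and 10.1 to 19.6 in AA.

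Vcam1 (ENSMUSG00000027962, chr3:116109949-116129688, - strand) encodes an adhesion molecule for leukocyte integrins that inflamed endothelium and tubule cells that fail to recover carry. It was at 2.77, 2.23, 1.05, 5.72 and 3.27 FPKM in C mice 1 to 5, at 5.32, 6.05, 9.33, 7.95 and 7.89 in M mice and at 7.81, 9.33, 5.79, 4.23 and 7.29 in AA mice. Only C mouse 4 reached into the range of the other groups, and M and AA overlapped almost entirely. The difference was 1.13 ± 0.33 in M vs. C (limma adjusted p = 0.114), 1.04 ± 0.31 in AA vs. C (adjusted p = 0.0207, called) and -0.09 ± 0.30 in AA vs. M (adjusted p = 0.87). The AA vs. C fold was 0.83 to 0.99, below 1, without C mouse 2, C mouse 3, AA mouse 1 or AA mouse 2, with the adjusted p at most 0.0482. After rescaling to TPM that fold was 0.20 (adjusted p = 0.649), but on TPM without mitochondrial genes it was 1.21 and called (adjusted p = 0.0187). The 8 endothelial markers summed to 20.9 to 37.8 FPKM in C, 16.4 to 27.0 in M and 11.4 to 22.1 in AA, and 0 of 8 had a positive fold change in either M vs. C or AA vs. C. Gm43109 overlaps Vcam1 on the other strand. No use of strand in counting was stated, so whether reads of the pair were told apart is not known.

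**Figure D2:**
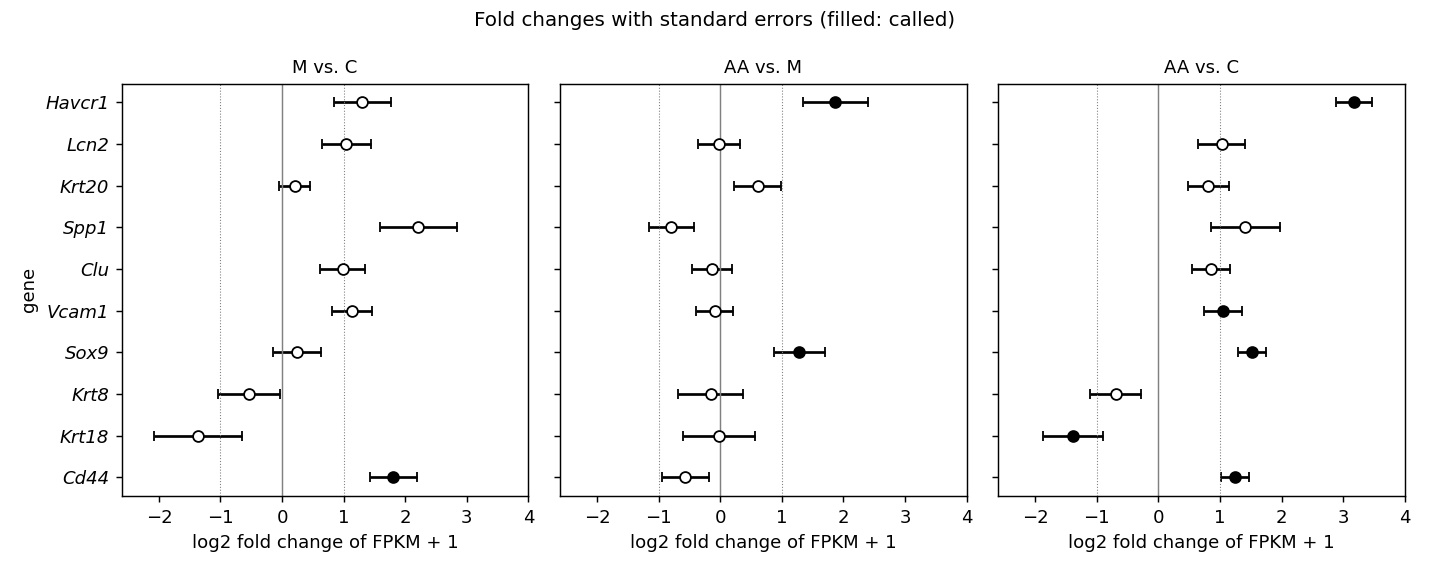
Log2 fold changes of FPKM + 1 with standard errors (horizontal axis) for the 10 genes in 1 panel per comparison, 5 kidneys a group, with filled circles for genes that passed both criteria and dotted lines at a fold change of 1 in either direction. Of 10 genes, 8 lie right of 0 in M vs. C and AA vs. C, and most lie around 0 in AA vs. M, where Havcr1 and Sox9 stand apart at 1.87 and 1.29.

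The keratins gave no call in M vs. C, and Krt18 was lower in AA vs. C. Krt8 (ENSMUSG00000049382, chr15:101996698-102004482, - strand) and Krt18 (ENSMUSG00000023043, chr15:102028180-102032027, + strand) encode the type II and type I keratins that pair into filaments in simple epithelia, and lie 23697 bases apart. Krt18 was at 32.7, 7.08, 60.6, 25.9 and 9.46 FPKM in C mice 1 to 5, at 16.2, 1.33, 2.10, 17.1 and 17.4 in M mice and at 5.21, 9.95, 7.37, 10.5 and 4.88 in AA mice. Krt8 was at 15.6, 9.21, 25.3, 18.9 and 8.29 FPKM in C mice, at 17.5, 4.11, 3.16, 13.3 and 21.6 in M mice and at 2.70, 11.8, 7.76, 10.2 and 15.03 in AA mice. Both keratins were low together in M mice 2 and 3 and high together in C mice 1, 3 and 4, and no M or AA kidney reached the control mean of Krt18.

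Krt18 was called lower in AA vs. C, with a log2 fold change of -1.39 ± 0.49 (SE, limma adjusted p = 0.045), with 2 AA kidneys below every control. The call held in 3 of the 10 fits without 1 kidney, and was lost without C mouse 1, 3 or 4 or AA mouse 1, 2, 3 or 5 (adjusted p from 0.0525 to 0.0961). For M vs. C it was -1.37 ± 0.72 (adjusted p = 0.36), and for AA vs. M -0.02 ± 0.59 (adjusted p = 0.988). With only M mice 4 and 5 these were -0.25 (adjusted p = 0.944) and -1.14 (adjusted p = 0.0735). With only M mice 1 to 3 they were -2.11 (adjusted p = 0.0584) and 0.73 (adjusted p = 0.368). Krt8 gave -0.54 ± 0.51 in M vs. C, -0.69 ± 0.41 in AA vs. C and -0.16 ± 0.53 in AA vs. M (adjusted p of 0.612, 0.197 and 0.875), and with only M mice 4 and 5 the M vs. C value was 0.24. On TPM, Krt8 was called lower in AA vs. C (-1.76, adjusted p = 0.0164), but on TPM without mitochondrial genes it was -0.87 and not called (adjusted p = 0.196). The ratio of Krt18 to Krt8 FPKM was above 1 in 4 of 5 controls, highest in C mice 1 and 3 at 2.09 and 2.39, and ranged from 0.324 to 1.28 in M and from 0.325 to 1.93 in AA. Sharing of reads limits Krt8 most: 36.0% of its 31-base words occur in other genes, chiefly a Krt8 pseudogene and the antisense gene Gm36026, against 11.4% for Krt18.

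The controls highest in Krt18 and Spp1 also had the highest sums of collecting duct markers. The 7 collecting duct markers summed to 358.3 FPKM in C mouse 1 and 536.7 in C mouse 3, against 36.7 to 88.9 in the other controls, 2.37 to 16.3 in M and 6.12 to 16.1 in AA, and none was at 0 in all kidneys of a group. Aqp2 alone held 254.6 and 436.9 FPKM of the sums of C mice 1 and 3. Fxyd4 was also highest there among controls (64.6 and 37.15), but Hsd11b2 was not (6.97 and 8.28, against 36.1 in C mouse 2). C mice 1 and 3 also had the lowest control sums of the 15 proximal tubule markers (3319 and 3556 FPKM, against 6740 to 13830). The 7 urothelium markers summed to 44.8 FPKM in C mouse 3, 1.08 to 23.1 in the other controls, 0 to 4.37 in M and 0.952 to 6.89 in AA, and in M kidneys 6 of 7 were listed at 0 in at least 3 kidneys. With only C mice 2, 4 and 5 as controls, a choice made after these values were seen, Krt18 in AA vs. C was -0.67 (limma adjusted p = 0.226) and not called. On the same basis Spp1 was called for M vs. C (3.02, adjusted p = 0.0129) and for AA vs. C (2.22, adjusted p = 0.00076), and Lcn2 was called in AA vs. C (1.54, adjusted p = 0.0091). Havcr1, Sox9 and Cd44 stayed called in AA vs. C (3.15, 1.5 and 1.27), Vcam1 was not called (0.76, adjusted p = 0.0895), and Cd44 in M vs. C was 1.84 (adjusted p = 0.0795). The number of members called was then 1 for M vs. C and 5 for AA vs. C, as with all controls, but for other genes: Spp1 in the former, and Havcr1, Lcn2, Spp1, Sox9 and Cd44 in the latter.

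**Figure D3:**
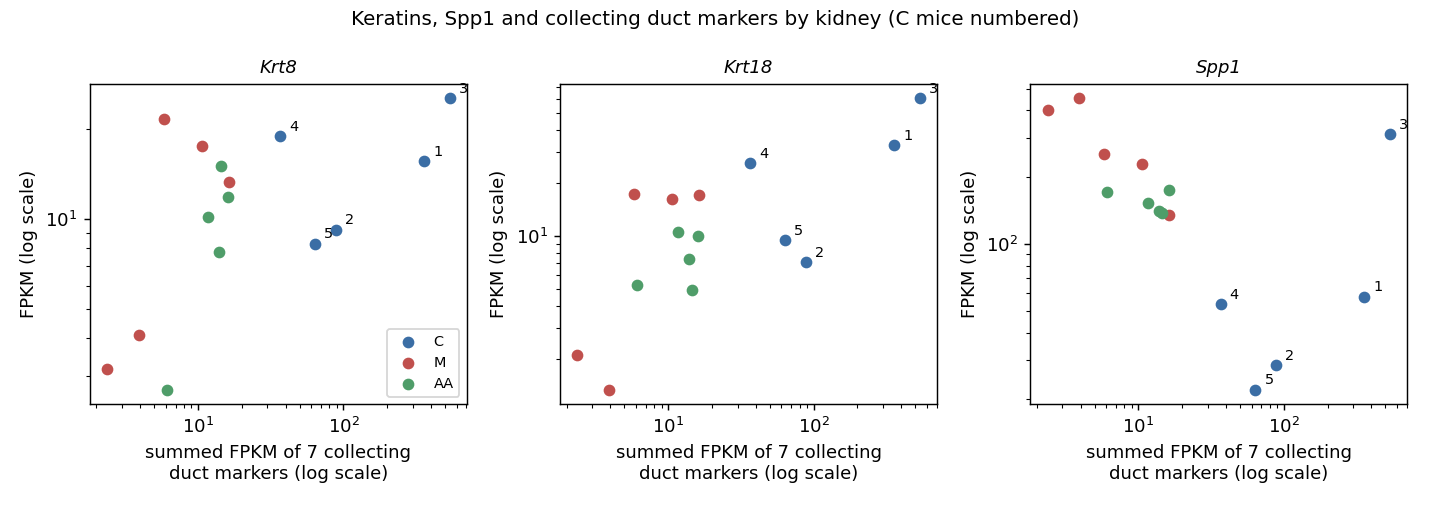
FPKM of Krt8, Krt18 and Spp1 (vertical axes, log scale) against the summed FPKM of 7 collecting duct markers (horizontal axis, log scale) in each kidney, coloured by group, with the number of each C mouse beside its circle. C mice 1 and 3 lie far to the right at 358.3 and 536.7, and C mouse 3 has the highest Krt8 and Krt18 of all kidneys and the highest Spp1 among controls.

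Krt20 (ENSMUSG00000035775, chr11:99428403-99438150, - strand) encodes a type I keratin of urothelium and gut that injured tubules also express. It was at 0.048, 0, 0.648, 0.46 and 0 FPKM in C mice 1 to 5, at 1.43, 0, 0, 0.283 and 0.648 in M mice and at 1.33, 2.82, 2.21, 0.479 and 0 in AA mice. AA mice 1, 2 and 3 had more than every control, yet AA mouse 5 had none. The difference was 0.21 ± 0.25 in M vs. C, 0.81 ± 0.34 in AA vs. C and 0.61 ± 0.39 in AA vs. M (limma adjusted p of 0.694, 0.0764 and 0.299), and without AA mouse 5 the AA vs. C value was 1.08 and called (adjusted p = 0.0144). These values rest on 116 fragments in C, 87 in M and 167 in AA over 5 kidneys each.

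**Figure D4:**
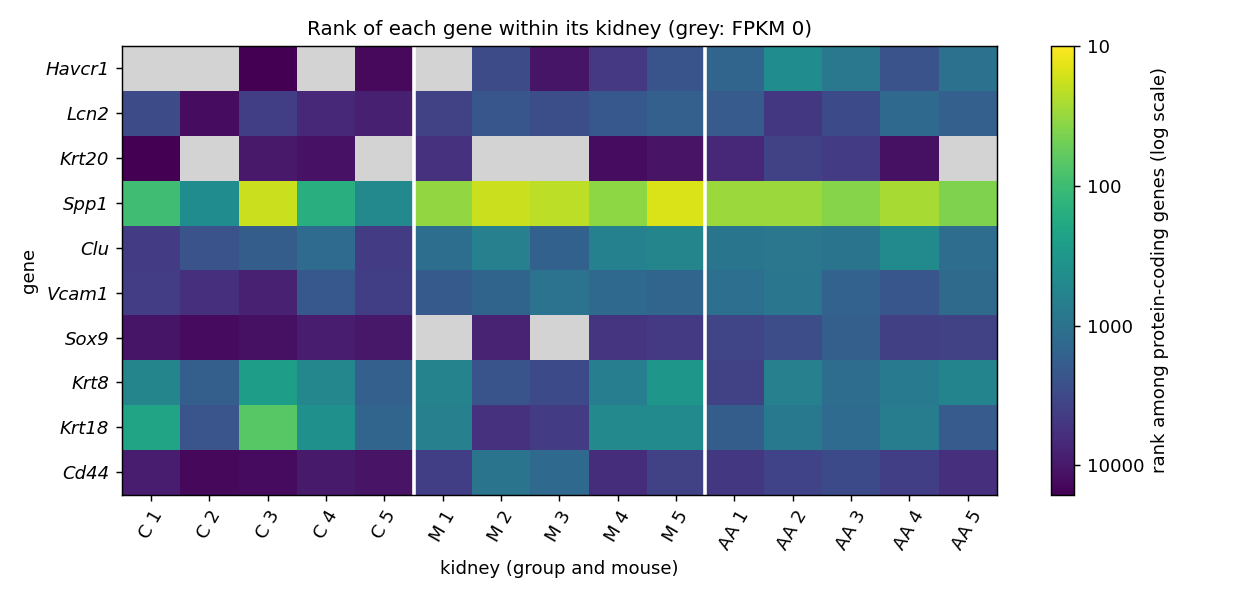
Rank of each of the 10 genes among the 21995 protein-coding genes of the same kidney (colour, log scale, yellow for the highest ranks), with 15 kidneys as columns, white lines between groups and grey for FPKM of 0. The Spp1 row is bright in every M and AA kidney (ranks 15 to 42), and Havcr1 and Sox9 turn from dark or grey in C kidneys to ranks of 440 to 2416 and 1750 to 3945 in AA kidneys.

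Within a kidney the 10 genes did not move as 1 unit. M mouse 5 had the highest value of its group for 6 of 10 genes, and M mice 1 and 3 had the lowest for 4 each, while M mice 2 and 3, lowest in the keratins and at 0.44 FPKM or less in Sox9, were the highest in Spp1 and Cd44. In the AA group, AA mouse 5 was lowest for 6 genes and AA mouse 2 highest for 4. C mouse 2 was lowest among controls for 6 genes. Rank within the kidney does not depend on how libraries were scaled, but that of a low gene depends on how many genes were detected. M mice 1 to 3 had the fewest. For Cd44 the ranks were 9077 to 13831 in C, 944 to 6134 in M and 3096 to 5796 in AA. For Sox9 the ranks were 9008 to 12904 in C, 4620 to 8071 in the 3 M kidneys that had it and 1750 to 3945 in AA. M mouse 2 ranked 8071 at 0.44 FPKM, while C mouse 4 ranked 9008 at 0.843 FPKM.

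Other settings left the Havcr1 and Sox9 calls of AA vs. C in place, and the Cd44 call of AA vs. C was lost only on TPM. Each other call of a member was lost under several settings. Mitochondrial genes made up 72.7% to 77.9% of the FPKM in C kidneys, 80.2% to 92.7% in M and 81.5% to 91.6% in AA. TPM keeps them in the sum of each library. Rescaling FPKM to TPM moved the median of all genes from -0.12 to -0.58 for M vs. C and from 0.09 to -0.39 for AA vs. C, and the medians of the members to 0.26 and 0.34. Quantile normalization moved the median of all genes to 0.04 for M vs. C and to -0.10 for AA vs. M, and left Cd44 called in the former and Havcr1 in the latter. On TPM, calls over all genes went from 57 higher and 234 lower to 31 and 1578 in M vs. C, and from 2241 and 2105 to 862 and 5923 in AA vs. C. With mitochondrial genes left out of TPM they were 61 and 179 in M vs. C, and 3578 and 3612 in AA vs. C. For AA vs. M, quantile normalization moved the calls from 2321 and 212 to 1584 and 695. On TPM, Cd44 was 1.56 in M vs. C (limma adjusted p = 0.0546) and 0.92 in AA vs. C (adjusted p = 0.0584). On TPM without mitochondrial genes it was called in both, at 3.17 (adjusted p = 0.0416) and 2.30 (adjusted p = 0.007), while neither Havcr1 (2.87, adjusted p = 0.0711) nor Sox9 (2.59, adjusted p = 0.0925) was called in AA vs. M.

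**Figure D5:**
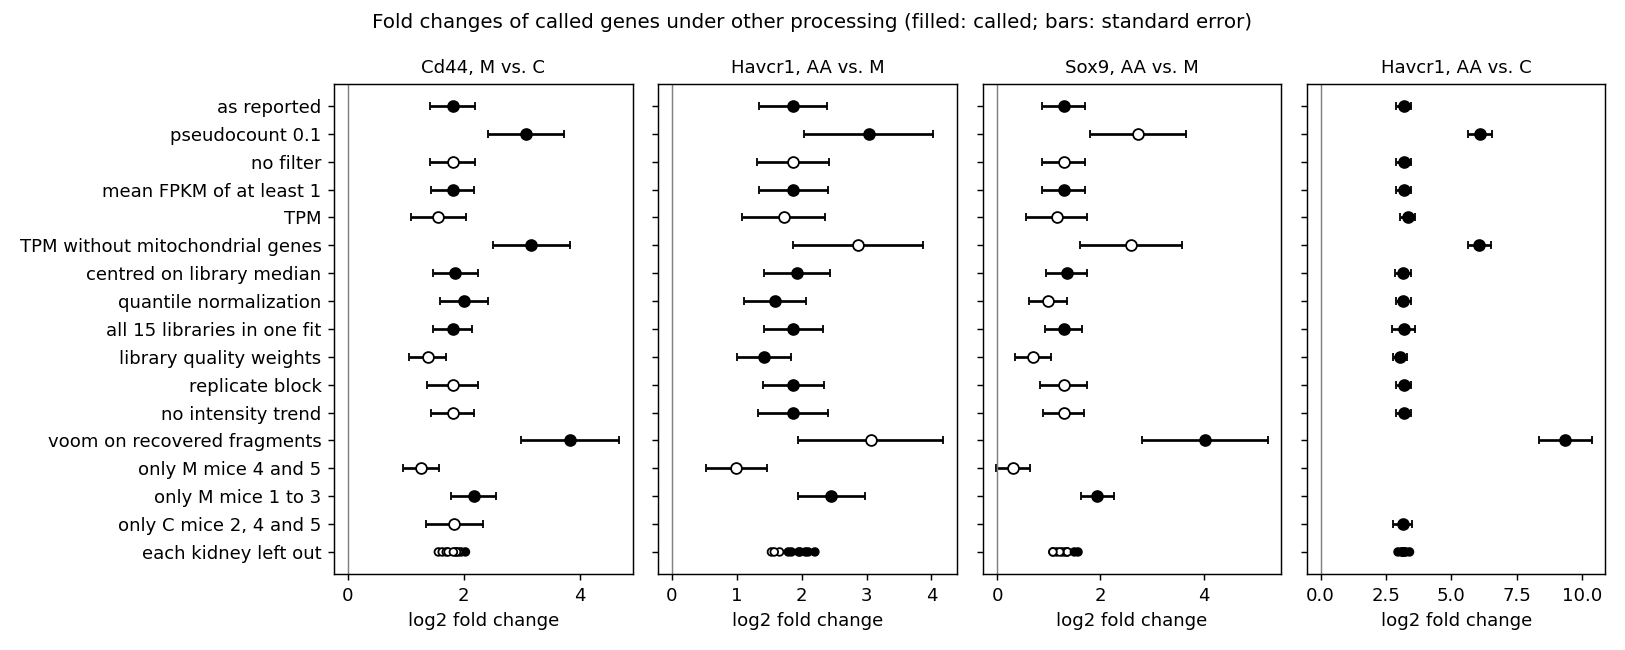
Log2 fold changes (horizontal axis, each on the scale of its own setting) with standard errors of Cd44 in M vs. C, Havcr1 and Sox9 in AA vs. M and Havcr1 in AA vs. C, as reported and under each other setting (vertical axis), with filled circles where the gene was called and small circles for fits without 1 kidney. Havcr1 in AA vs. C is filled throughout, whereas the circles of the other 3 panels are open under several settings, among them TPM and M mice 4 and 5 alone.

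Of 33 other genes of tubular injury and repair, 32 could be tested. Vim, which encodes the intermediate filament vimentin, was the only one called in M vs. C (2.35 ± 0.45, SE, limma adjusted p = 0.0287), with means of 7.76 ± 2.32 FPKM in C and 52.8 ± 38.0 in M. That call held in 5 of 10 fits without 1 kidney, and with only M mice 4 and 5 it was 1.38 (adjusted p = 0.13). For AA vs. M, 5 of the 32 were called lower and 0 higher, where 1.07% of all genes were called lower and 11.7% higher. They were Anxa1, which encodes an anti-inflammatory annexin (-1.76), Vim (-1.56), Tnfrsf12a, the receptor of TWEAK (-1.40), S100a6, a calcium-binding protein (-1.35), and Lgals3, which encodes galectin-3 (-1.17), with adjusted p of 0.025, 0.0297, 0.0112, 0.0199 and 0.0267. The median over the 32 was 0.54 for M vs. C and -0.63 for AA vs. M, against -0.12 and 0.17 over all genes. In AA vs. M, 10 of the 32 fold changes were positive and 22 negative. Against M mice 4 and 5 alone, Tnfrsf12a was called at -1.86 (adjusted p = 0.014), Lgals3 was -1.20 (0.0673), and Vim, Anxa1 and S100a6 were -0.58, -0.59 and -0.95 (adjusted p from 0.176 to 0.263). With all M kidneys, Havcr1 and Sox9 were thus called in AA vs. M in the opposite direction to the 5 of these genes that passed. Against M mice 4 and 5 alone, neither Havcr1 (0.99) nor Sox9 (0.31) was called.

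Of 16 genes for partners of the members' proteins, 14 could be tested. Itgb7, the integrin β7 chain that pairs with α4 to bind VCAM1, was higher in M (6.33 ± 2.32 FPKM) than in C (0.542 ± 0.471), with a log2 fold change of 2.22 ± 0.33 (limma adjusted p = 0.0144), and lower in AA (0.349 ± 0.336) than in M, with a log2 fold change of -2.40 ± 0.33 (adjusted p = 0.0029). Lrp2, which encodes megalin, the proximal tubule receptor that takes up NGAL and clusterin, was lower in M vs. C (-2.08 ± 0.46, adjusted p = 0.044). The Lrp2 call held in 2 of 10 fits without 1 kidney and that of Itgb7 in 8, and with only M mice 4 and 5 they were -1.63 (adjusted p = 0.29) and 2.00 (adjusted p = 0.115). In AA vs. M, Itga9 (1.15 ± 0.37, adjusted p = 0.048) and Itgb6 (1.05 ± 0.29, adjusted p = 0.0224), integrin chains whose heterodimers bind osteopontin, were higher, and Plec, the linker of keratin filaments to the membrane, was lower (-1.48 ± 0.38, adjusted p = 0.0181). In all, 2 of the 14 were called higher and 2 lower in AA vs. M, where 11.7% of all genes were called higher and 1.07% lower. Against M mice 4 and 5 alone Itgb7 (-2.18, adjusted p = 0.0111) and Plec (-2.10, adjusted p = 0.0109) were still called, and Itga9 (0.52, adjusted p = 0.424) and Itgb6 (0.72, adjusted p = 0.153) were not. In AA vs. C, 0 of the 14 were called higher, and Lrp2, Plec and Slc22a17 were called lower, where 10.2% of all genes were called higher and 9.61% lower.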

How the data were processed

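One kidney of each of 15 mice was sequenced as poly-A RNA in paired ends of 150 bases. The authors trimmed reads (fastp), aligned them with HISAT2 2.0.5, counted them with featureCounts 1.5.0-p3 and deposited 1 FPKM value per gene and kidney; the build in the submitters' processing notes is mm10, and the annotation release was not given in the sources used here. The counts behind the authors' own test were not analysed here. Gene symbols, positions and joined exon lengths came from GENCODE M21 on GRCm38, which lacked 37 of the identifiers. Groups followed the labels, and no 2 libraries were identical.

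Comparisons (M vs. C, AA vs. M, AA vs. C) used limma 3.58.1 in R 4.3.3 (lmFit, eBayes with an intensity trend) applied to the 10 libraries compared, on the scale log2(FPKM + 1), for genes above 0 in at least 5, with Benjamini-Hochberg adjustment over all genes. Fold changes on this scale understate those of low genes. A gene was called at 0.05 or less for the adjusted p and 1 or more for the absolute log2 fold change. The fit was tested on simulated data. Fragments were recovered from the smallest steps of each library, of which 97.8% to 99.0% of the low values were whole multiples (tolerance 0.05); if the smallest step stood for more than 1 fragment, all would scale together. The recovered divisor of FPKM was 0.518 to 2.30 times the fragments on genes but 3.19 to 5.03 times the nuclear ones. The deposited values thus appear to be scaled more nearly to the nuclear fragments than to all fragments. TPM replaces that scaling by a sum that includes the mitochondrial genes.

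The members, the 11 other gene lists and the tests were chosen with earlier results of these data known. All members are named, and of other lists at most the 6 largest calls per list when M was compared with C or AA with M. The 15 other settings were a pseudocount of 0.1, no filter, a mean FPKM of at least 1, TPM with and without mitochondrial genes, centring, quantile normalization, all 15 libraries in 1 fit, quality weights, a replicate block, no trend, voom on the recovered fragments (nuclear totals as library size), M mice 4 and 5 only, M mice 1 to 3 only and C mice 2, 4 and 5 only (chosen after seeing the data), besides each kidney left out. Sequence shared between genes was measured as the percentage of 31-base words that transcripts of another gene also hold. Promoters are from RefSeq (GRCm38.p6). Other versions were Python 3.11.15, numpy 2.4.6, pandas 2.3.3 and matplotlib 3.10.9.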

Additional observations from a re-analysis of the deposited data

Results flagged for a closer look

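Among the 10 genes and 3 groups, 2 kidneys stood far from the other 4 of their group by Dixon's ratio, the gap to the nearest kidney over the whole range, with a critical value of 0.71. The ratio was taken on log2(FPKM + 1), while the values below are FPKM. Chance flags about 1 in 20 groups. For Havcr1, C mouse 5 had a ratio of 0.955, with 0.155 FPKM where the other controls had 0 to 0.0065 FPKM. This kidney held 12 of the 13 control fragments of the gene, and its value was below that of every AA kidney. For Clu, AA mouse 4 had a ratio of 0.731, with 15.1 FPKM against 8.00 to 9.52 FPKM in the other AA kidneys.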

How the results depend on the processing

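As reported, 1 member was called for M vs. C and 2 for AA vs. M. In M vs. C the number was 0 with no filter, TPM, quality weights, no intensity trend or M mice 4 and 5 only. It was 2 with M mice 1 to 3 only (Cd44 and Spp1), and 3 with all 15 libraries in 1 fit or voom. In AA vs. M it was 0 with no filter, either TPM or M mice 4 and 5 only, and 1 with a pseudocount of 0.1, quantile normalization, quality weights, no trend or voom, and 3 with M mice 1 to 3 only, Spp1 being the third, called lower. For AA vs. C it was 5 as reported and 4 to 7 under other settings, 7 being voom. With mouse number as a replicate block, there were 0 calls for M vs. C and 1 for AA vs. M; same-numbered mice correlated between -0.131 and 0.217 in their deviations, so numbers were taken as names only. Leaving out 1 kidney gave 0 to 1 calls and member medians of 0.88 to 1.11 in M vs. C, 0 to 2 and -0.20 to 0.13 in AA vs. M, and 3 to 5 and 0.96 to 1.16 in AA vs. C. The median in M vs. C was 0.26 with TPM and 1.67 with voom, and in AA vs. C 1.51 with a pseudocount of 0.1, 0.34 with TPM and 1.84 with voom. The causes were not tested.

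Signs turned for genes that were not called. In M vs. C, Sox9 was -0.12 with a pseudocount of 0.1, -0.078 with TPM without mitochondrial genes, -0.79 with voom, -0.41 with M mice 1 to 3 and -0.037 to 0.45 without 1 kidney, and Krt8 was 0.24 with M mice 4 and 5. In AA vs. M with M mice 1 to 3, Lcn2, Clu, Krt8 and Krt18 were 0.26, 0.13, 0.36 and 0.73. Centring gave 0.040 for Lcn2 and 0.041 for Krt18, and a pseudocount of 0.1 gave 0.091 for Krt18. Without 1 kidney the values were -0.17 to 0.16 for Lcn2, -0.20 to 0.048 for Vcam1, -0.49 to 0.18 for Krt8 and -0.48 to 0.26 for Krt18. In AA vs. C, Clu was -0.11 with TPM. Havcr1 had too few values to be fitted in M vs. C with M mice 4 and 5 or 1 to 3 only, and Krt20 likewise with M mice 1 to 3 or C mice 2, 4 and 5 only.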

Other observations

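Cell type markers that are not among the genes above showed how the tissue around them differed. Of 15 proximal tubule markers, 9 were called lower and 0 higher in M vs. C (limma, adjusted over all genes), among them Slc34a1, the sodium-phosphate cotransporter (-5.65 ± 0.85, SE, adjusted p = 0.0155), and Kap, an androgen-regulated kidney protein (-4.46 ± 0.54, adjusted p = 0.0085). In AA vs. M, 1 of the 15 was called higher, Hnf4a, a transcription factor of proximal tubule identity (1.79 ± 0.47, adjusted p = 0.0195), with means of 19.7 FPKM in C, 4.55 in M and 14.6 in AA. With only M mice 4 and 5 it was 0.69 (adjusted p = 0.201) and not called. Over the 15 markers, 13 fold changes of AA vs. M were positive, with a median of 0.48, where 11.7% of all genes were called higher. Against M mice 4 and 5 alone, Slc34a1 (-1.69, adjusted p = 0.0138) and Slc27a2 (-2.71, adjusted p = 0.0036) were called lower in AA. Kap (0.58) and Miox (0.62) were positive there and not called. In AA vs. C, 11 of the 15 were called lower and 0 higher, with a median of -2.32, where 9.61% of all genes were called lower. With only M mice 4 and 5, 0 genes of any list were called for M vs. C. Of 7 thick limb and distal tubule markers, Slc12a3 was called lower in M vs. C (-4.34 ± 0.64, adjusted p = 0.0144) and 0 were called in AA vs. M. Of 7 collecting duct markers, Aqp2, Fxyd4 and Hsd11b2 were called lower when M was compared with C, and 0 when AA was compared with M. Of the urothelium markers, 5 could be tested between M and C and 4 between AA and M, and 0 were called, with 3 at an unadjusted p under 0.05 in each.

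Of 9 macrophage markers, Lyz2, Ctss, C1qb and C1qc were called higher in M vs. C, led by Lyz2, lysozyme (4.32 ± 0.72, adjusted p = 0.019), and C1qb, a complement chain, was called lower in AA vs. M (-1.36 ± 0.30, adjusted p = 0.0084). Of 6 T cell markers, 0 were called in M vs. C, where 0 had an unadjusted p under 0.05, and Cd3g (2.51 ± 0.50, adjusted p = 0.0056) and Cd3e (1.23 ± 0.36, adjusted p = 0.0308), chains of the T cell receptor complex, were called higher in AA vs. M. Of the 5 tested there, 3 were positive and 2 negative, with a median of 0.09, and Cd3d and Cd4 were at 0 in at least 3 AA kidneys. With only M mice 4 and 5, Cd3g was 1.22 (adjusted p = 0.0674), Cd3e 0.68 (adjusted p = 0.326) and C1qb -1.15 (adjusted p = 0.0586), and none of the 3 was called. Of 9 fibroblast markers, Col3a1 was called higher in M vs. C (2.08 ± 0.41, adjusted p = 0.0296) and Col1a1 in AA vs. M (1.45 ± 0.46, adjusted p = 0.0433), which held in 2 of 10 fits without 1 kidney and was 0.62 (adjusted p = 0.449) with only M mice 4 and 5. In AA vs. C 7 were called higher and 0 lower. The summed fibroblast markers were 67.6 to 152.9 FPKM in C, 135.3 to 450.4 in M and 289.9 to 491.8 in AA. Of 8 endothelial markers and 11 neutrophil markers, 0 were called when M was compared with C or AA with M (4 of the neutrophil markers could be tested; in M vs. C, 1 endothelial and 1 neutrophil marker had an unadjusted p under 0.05, and for AA vs. M 0 and 2).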
